A study of Mus musculus with 7 samples.

Results

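Plasma cells sorted from mouse spleen at day 3 after lipopolysaccharide (LPS, a bacterial cell wall component that activates B cells) were compared with naive splenic B cells on Illumina single-colour bead arrays, 1 array per sample. The comparison used 4 of the 7 arrays of the series, 2 of plasma cells and 2 of naive B cells. It took in every probe with a detection p-value under 0.01 on at least 2 of these 4 arrays, which kept 10325 of 25697 probes, whatever their difference between the groups. All mice were C57Bl/6J, labelled female and 10 weeks old, with no genetic change named. The naive B cells came from naive mice with control as the agent and were gated as B220+ CD43-. The plasma cells came from LPS-treated mice and were gated as B220low CD138+. The other 3 arrays held plasmablasts, gated as B220mid CD138+ at day 3 after LPS, and served as a second reference. The dose and route of LPS are not given in the sources used here, nor is whether the numbered samples came from separate animals, so each p-value reflects no more than how far apart these samples lie.

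Naive B cells recirculate through the spleen, display the antigen receptor and present antigen on MHC class II. LPS acts on mouse B cells through Toll-like receptor 4 and can turn them into antibody-secreting cells without T cell help. In that change the repressor Blimp-1 (Prdm1) shuts down B cell genes and XBP1 enlarges the endoplasmic reticulum (ER), where antibodies are folded.

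The 2 arrays of a group were close to each other and far from the other group. Over the kept probes the 2 naive B cell arrays had a Pearson's r of 0.9948 and the 2 plasma cell arrays one of 0.9933, while arrays of different groups had 0.7784 to 0.7813. Probes above background numbered 9135 and 9559 on the naive B cell arrays and 9930 and 9893 on the plasma cell arrays, or 35.5 to 38.6% of all probes. The number of arrays limits the precision. All arrays lay on 1 bead chip with each group in neighbouring positions, so position and group cannot be told apart.

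Sex-linked genes went against the labels on the naive side. Eif2s3y, a translation factor gene on chromosome Y, gave a normalized log2 signal of 11.61 and 11.34 on the naive B cell arrays and 5.12 and 4.80, not above background, on the plasma cell arrays. Kdm5d, also on chromosome Y, stood at 8.77 and 8.51 in naive B cells and was not above background in plasma cells (5.13 and 5.11). Xist, the RNA of the inactive X chromosome, showed the opposite order, with 5.40 and 5.77, not above background, in naive B cells and 9.60 and 9.95 in plasma cells. The Uty probe was above background on all 4 arrays, at 7.57 and 7.33 against 6.49 and 6.46. Both naive B cell arrays carried the Y-linked signal, so no comparison without it could be made here, and the sex of the mice cannot be told apart from the difference between plasma cells and naive B cells.

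The labelled cell types were present on both sides. Of the markers used to check them, Sdc1, which encodes the sorted surface protein CD138, read 5.88 and 6.02, not above background, in naive B cells and 10.02 and 9.65 in plasma cells. Tnfrsf17, the survival receptor BCMA, read 5.50 and 5.82, not above background, against 11.54 and 11.71. Xbp1 was high in both groups and higher in plasma cells, at 12.07 and 12.15 against 15.10 and 14.99. Cd22, an inhibitory co-receptor of B cells, read 12.70 and 12.74 in naive B cells and 5.55 and 5.65, not above background, in plasma cells. No values overlapped between the groups for these 4 genes, which also held for 87% of all genes tested.

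Most measured probes differed between plasma cells and naive B cells. A probe was called at an adjusted p under 0.05 in limma's test of the 2 groups, with Benjamini-Hochberg adjustment over all 10325 probes. The test called 7279 probes (70.5%), of which 3380 (32.7%) were higher and 3899 (37.8%) lower in plasma cells. With 1 probe per gene, the one with the highest mean signal, 7187 named genes were left, of which 5065 (70.5%) were called, 2348 (32.7%) higher and 2717 (37.8%) lower. For 6254 genes (87%) the arrays of the groups did not overlap. The median log2 difference over all genes was -0.09, and every list median below is to be read against it. Each list count is likewise to be read against the 32.7% higher and 37.8% lower over all genes. In bulk samples such as these, fewer cells of a type and less RNA per cell cannot be told apart. Folds follow the normalized log2 scale. Where a gene was not above background on either array of the lower group, the fold is given as "at least", measured against the lowest signal above background on those arrays. Counted in this way, differences of at least 2-fold were reached by 1031 called genes upward and 956 downward, and differences of at least 8-fold by 160 and 102.

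**Figure D1:**
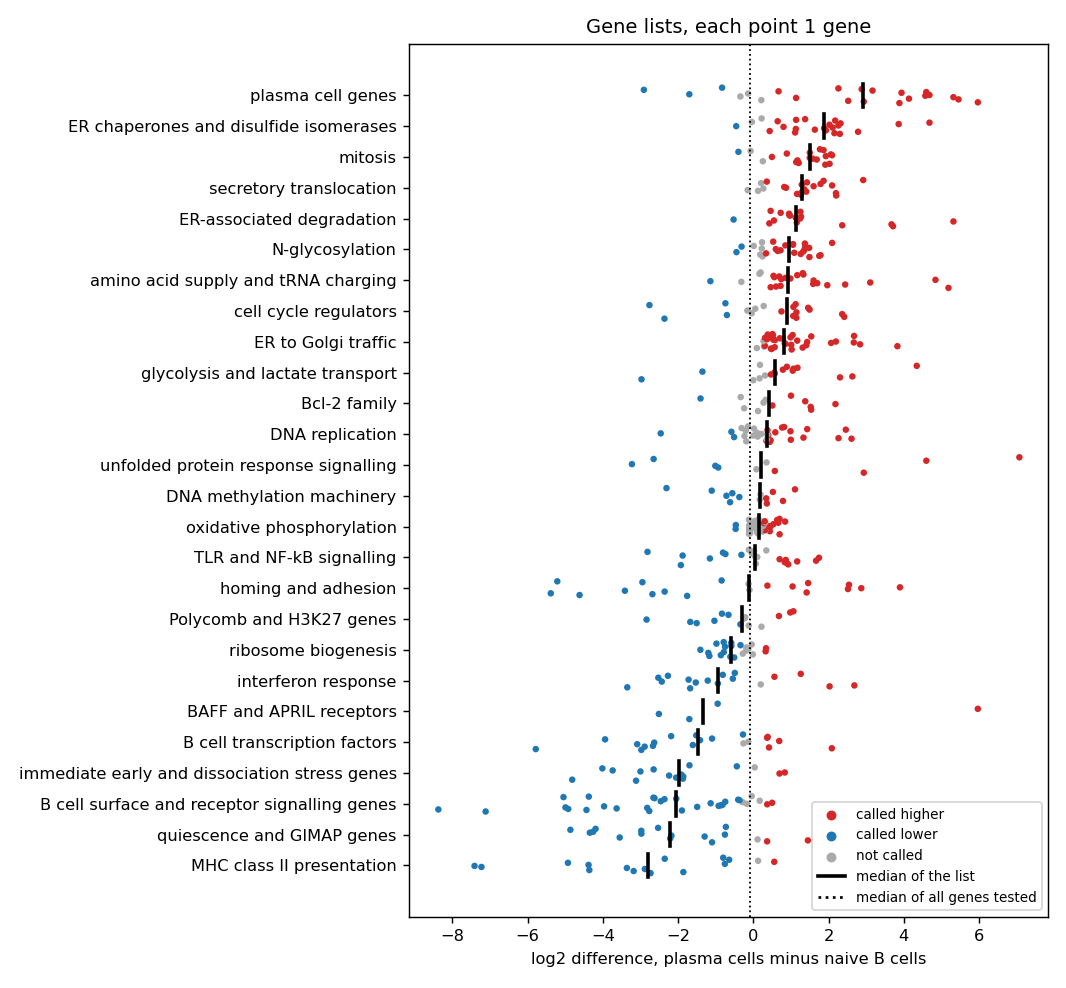
Log2 difference between plasma cells and naive B cells (x axis) for the genes of 26 lists (y axis), 1 point per gene on a single probe, over 2 arrays a group. Red points were called higher, blue points lower and grey points were not called, the short bars are list medians and the dotted line is the median of all 7187 genes; medians run from 2.91 for plasma cell genes to -2.81 for MHC class II presentation.

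Genes that define the antibody-secreting state were among the clearest rises. Of 26 plasma cell genes listed, 25 had a probe and 22 were tested, and 16 rose, 3 fell and 3 were not called, with a median log2 difference of 2.91 (2.52 with bounded changes at their limit). Tnfrsf17 was at least 30.2-fold higher in plasma cells (adjusted p = 1.33e-06). Bhlha15, which encodes MIST1, a factor that scales up secretory cells, rose from 5.71 and 6.26, not above background, to 11.47 and 11.41, at least 26.5-fold (adjusted p = 3.31e-06). Sdc1 was at least 8.71-fold higher (adjusted p = 4.75e-06) and Xbp1 7.64-fold higher (log2 difference 2.93, standard error 0.11, adjusted p = 3.93e-06). Jchain, the chain that joins IgM and IgA monomers and named here after its values were seen, read 4.91 and 5.07, not above background, against 9.08 and 9.17, at least 5.34-fold higher. The 3 members that fell were Ly6d (14.47 in both naive arrays, 11.40 and 11.73 in plasma cells), the BAFF and APRIL receptor gene Tnfrsf13b (9.44 and 9.62 against 7.92 and 7.74) and Sub1 (8.95 and 8.66 against 7.95 and 7.99).

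The factors that set this state did not all change in level. Prdm1 read 5.17 and 4.96, not above background, in naive B cells and 7.41 and 7.76 in plasma cells, at least 1.84-fold higher (adjusted p = 2.63e-05). Irf4, which acts with Blimp-1 in plasma cells, was already high in naive B cells, at 12.04 and 11.96 against 12.25 and 12.17. Its log2 difference of 0.21 was not called (adjusted p = 0.113), and it was called under 75th percentile scaling (adjusted p = 0.0264), cyclic loess (adjusted p = 0.0183), the authors' normalized values (adjusted p = 0.0419) and an intensity trend (adjusted p = 0.0321). Of the genes of the gating antigens other than CD138, Ptprc (CD45, of which B220 is a form) had a log2 difference of 0.19 (adjusted p = 0.221), while a second Ptprc probe had 1.00 and the mean of both probes was called (0.60, adjusted p = 0.00297). The probes do not separate B220 from other forms of CD45. Spn, the gene of CD43, rose from 7.09 and 7.26 to 8.57 and 8.17 (adjusted p = 0.000769).

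**Figure D2:**
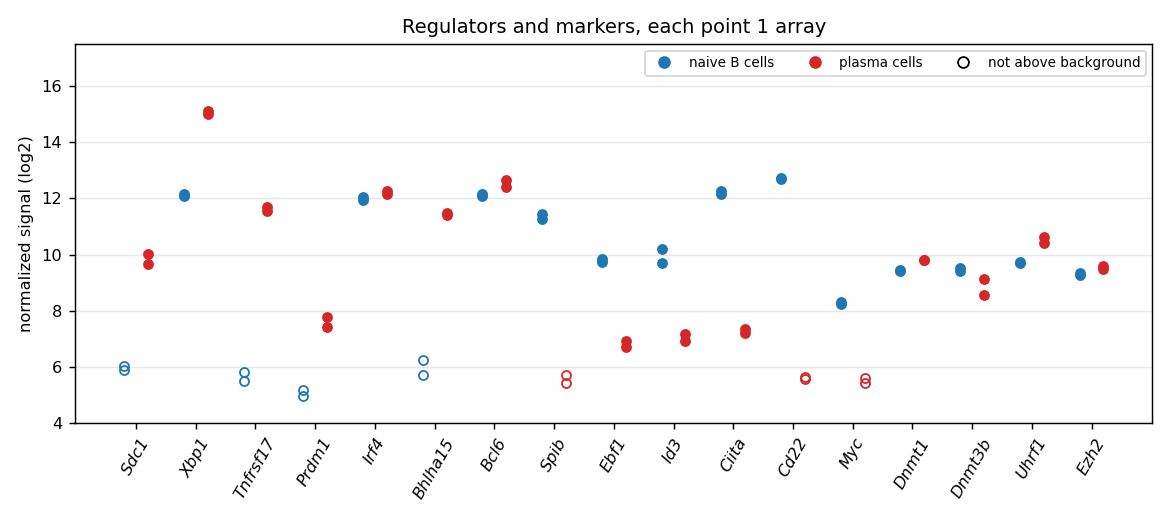
Normalized log2 signal (y axis) of the checked markers and of regulators of B cell and plasma cell state (x axis), 1 point per array, blue for the 2 naive B cell arrays and red for the 2 plasma cell arrays. Open circles were not above background; Spib, Cd22 and Myc are open in plasma cells and Sdc1, Tnfrsf17, Prdm1 and Bhlha15 in naive B cells.

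The ER folding machinery rose as a group. Of 30 listed ER chaperones and disulfide isomerases, 26 had a probe and 23 were tested, of which 20 rose and 1 fell, with a median of 1.88. Fkbp11, a prolyl isomerase of secretory cells, rose 25.6-fold, from 9.12 and 8.88 to 13.72 and 13.63 (adjusted p = 1.58e-06). Creld2, an ER stress-induced folding factor, rose 14.5-fold, from 10.00 and 9.95 to 13.80 and 13.87. Hyou1, an ER chaperone of the Hsp70 family, read 5.85 and 6.10, not above background, against 8.95 and 8.56. The prolyl isomerase gene Fkbp2 rose 4.98-fold. The member that fell, the ER oxidase gene Ero1b, changed by -0.46 (adjusted p = 0.0206), a call that was lost in 4 alternatives.

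The promoters of this group often held the ER stress response element, a motif that ATF6 and NF-Y are known to bind. Promoter sequences, from 250 bases before to 50 after the gene start, came from RefSeq on GRCm38.p6 and matched 5940 of the 7187 genes. The motif, searched on both strands, was CCAAT and CCACG with 9 bases of any kind between them. It stood in 7 of 19 promoters of the ER folding list (36.8%), in 11 of all 5940 (0.185%) and in 37 of the 27025 promoters of the whole table (0.137%). A match is a run of letters and not a measured binding site. The stretches below are from genes chosen after their values were seen, all with log2 rises of 1.11 or more. They carry the motif in 6 genes of the list and in Derl3 of ER-associated degradation. They run 5′ to 3′ on the strand of the motif, with the CCAAT and CCACG letters in capitals.
Hspa5, chr2:34772009-34772059, plus strand: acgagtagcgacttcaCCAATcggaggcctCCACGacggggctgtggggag
Hsp90b1, chr10:86705622-86705672, minus strand: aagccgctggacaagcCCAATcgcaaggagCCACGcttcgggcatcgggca
Calr, chr8:84847059-84847109, plus strand: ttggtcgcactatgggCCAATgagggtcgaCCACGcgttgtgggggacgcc
Dnajc3, chr14:118937811-118937861, plus strand: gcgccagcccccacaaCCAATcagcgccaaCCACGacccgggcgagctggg
Pdia6, chr12:17266475-17266525, plus strand: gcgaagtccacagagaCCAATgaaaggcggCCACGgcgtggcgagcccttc
Creld2, chr15:88819504-88819554, minus strand: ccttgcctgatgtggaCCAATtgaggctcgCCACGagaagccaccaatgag
Derl3, chr10:75893226-75893276, minus strand: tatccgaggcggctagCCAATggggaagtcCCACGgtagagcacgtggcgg

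Genes with these stretches rose by very different amounts. Derl3, an ER membrane protein that passes misfolded proteins to degradation, read 5.18 and 5.50, not above background, in naive B cells and 10.69 and 10.63 in plasma cells, at least 15.5-fold higher. Hspa5, the ER Hsp70 chaperone BiP, read 6.19 and 6.09, not above background, against 8.35 and 8.53, and Hsp90b1, the ER Hsp90, 13.02 and 13.01 against 15.16 and 15.17. The calreticulin gene Calr rose less, from 10.58 and 10.55 to 11.80 and 11.54, a log2 difference of 1.11. Dnajc3 and Pdia6, a co-chaperone and a disulfide isomerase, rose by 1.93 and 2.11. The stretch of Creld2 is also the promoter of its divergent neighbour Alg12, which was not called (log2 difference 0.22). Ero1b, the member that fell, and Syvn1 of ER-associated degradation (log2 difference 0.42, called higher) hold the motif as well and are not shown.

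The other steps of secretion rose with it. In ER-associated degradation 24 genes were listed, 21 had a probe and 17 were tested, of which 16 rose and 1 fell, with a median of 1.12. Edem1 and Sel1l, which mark and pull out misfolded glycoproteins, rose 13.1-fold and 12.7-fold, and Edem2 rose 5.13-fold. Herpud2 fell by 0.53 on the log2 scale. In translocation into the ER 25 genes were listed, 24 had a probe and 21 were tested, of which 17 rose and 0 fell, with a median of 1.28. The signal peptide peptidase gene H13 rose 7.57-fold, the channel gene Sec61a1 4.6-fold, Ssr2 of the translocon-associated complex 4.58-fold and the receptor subunit gene Srprb 4.26-fold, with a second Srprb probe at a log2 difference of 0.42. In N-glycosylation 35 genes were listed, 33 had a probe and 26 were tested, of which 19 rose and 2 fell, with a median of 0.95, and the oligosaccharyltransferase genes Stt3a, Ddost and Rpn2 rose 3.44-fold, 3.36-fold and 2.81-fold. The sugar-nucleotide enzyme gene Gmppb led this list at 4.26-fold. The 2 that fell, Alg1 (-0.45) and Dpm2 (-0.31), lost their call in 2 and 8 alternatives.

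Genes of traffic from the ER to the Golgi rose by smaller sizes. Of 40 listed genes, 38 had a probe and 34 were tested, of which 31 rose and 0 fell, with a median of 0.81. Sec24d, a coat protein that picks cargo, read 5.28 and 5.72, not above background, against 9.37 and 9.29, at least 6.14-fold higher. Lman1, a cargo receptor, rose from 8.47 and 8.65 to 11.45 and 11.34, and Arfgap3 rose 6.39-fold. Kdelr3, which returns ER proteins, was at least 1.73-fold higher. A second known motif, the XBP1-bound element TGACGTGG (UPRE), searched on both strands, stood in 5 of 30 promoters of this list (16.7%), in 62 of the 5940 of all genes tested (1.04%) and in 0.714% of the whole table. It is shown, in capitals, for Sec24d and Kdelr3, in which it lies before the start and which rose most among the 5, and for the ER folding gene Txndc11 (log2 difference 2.02), chosen after its values were seen.
Sec24d, chr3:123267454-123267493, plus strand: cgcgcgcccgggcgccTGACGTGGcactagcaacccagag
Kdelr3, chr15:79516362-79516401, minus strand: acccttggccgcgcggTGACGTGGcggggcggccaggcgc
Txndc11, chr16:11134611-11134650, minus strand: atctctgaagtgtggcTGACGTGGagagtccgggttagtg

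The sensors and transcription factors of the unfolded protein response did not move one way. Of 14 listed genes 13 had a probe and 10 were tested, with 4 higher, 4 lower and a median of 0.21. These counts are near the 32.7% higher and 37.8% lower over all genes. Creb3l2, a membrane-bound transcription factor of secretory cells, was at least 11.9-fold and Nupr1, a small stress-induced chromatin protein, at least 79.6-fold higher, and Atf6b rose by 0.57. The 4 that fell were Ppp1r15a, Atf3, Ddit3 and Atf4, while the sensor kinase gene Eif2ak3 was not called. Ppp1r15a, which reverses the arrest of translation, read 12.57 and 12.19 in naive B cells and 9.11 and 9.19 in plasma cells. Atf3 was at least 3.19-fold lower, Ddit3 (CHOP) fell by 1.01 and Atf4 fell by 0.94.

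Genes for amino acid supply and tRNA charging rose. Of 30 listed genes 29 had a probe and 24 were tested, of which 20 rose and 1 fell, with a median of 0.92 (0.70 with bounded changes at their limit). Asns, which makes asparagine, read 5.49 and 5.63, not above background, against 10.73 and 10.77, at least 16.4-fold higher. Chac1, a glutathione-degrading enzyme, read 5.01 and 5.24, not above background, against 9.87 and 10.06, at least 9.55-fold higher. The cystine transporter gene Slc7a11 was at least 2.45-fold higher and was above background on 0 of 3 plasmablast arrays, as many myeloid markers were; their part in its rise was not tested. The proline pathway gene Aldh18a1 rose 5.42-fold, while the glutamine transporter gene Slc38a2 fell by 1.14, with a second probe at 0.04. The composite element TGATGNAAN, which ATF4 is known to bind with a C/EBP partner, was searched on both strands and stood in 8 of 19 promoters of this list (42.1%), in 2.93% of those of all genes tested and in 4.5% of the whole table. It is shown, with its fixed letters in capitals, for the 3 members with it before their start that rose most and for the threonine tRNA synthetase gene Tars (log2 difference 1.31), chosen after its values were seen.
Asns, chr6:7693210-7693248, minus strand: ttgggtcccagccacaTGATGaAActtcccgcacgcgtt
Slc7a11, chr3:50443655-50443695, minus strand: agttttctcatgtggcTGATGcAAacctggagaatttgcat
Chac1, chr2:119351032-119351072, minus strand: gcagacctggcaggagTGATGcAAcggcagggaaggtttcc
Tars, chr15:11399659-11399690, plus strand: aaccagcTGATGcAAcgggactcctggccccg

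Genes of B cell identity fell. Of 26 listed B cell transcription factors 22 had a probe and 20 were tested, of which 13 fell and 5 rose, with a median of -1.47. Spib, an Ets factor of B cells, read 11.27 and 11.44 in naive B cells and 5.71 and 5.43, not above background, in plasma cells, at least 30.0-fold lower (adjusted p = 1.33e-06). Bcl11a fell by 3.94, Ets1, which restrains plasma cell formation in mice, fell by 3.09, Ebf1 fell by 2.98 and Id3 fell by 2.89. Pax5 was above background on 0 of these 4 arrays and gave no value. Bcl6, the repressor that opposes Prdm1 in germinal centre B cells, went the other way, at 12.09 and 12.15 in naive B cells and 12.39 and 12.67 in plasma cells. That log2 difference of 0.41 (adjusted p = 0.0282) was no longer called when naive B cell array 1 (adjusted p = 0.117), naive B cell array 2 (adjusted p = 0.079) or plasma cell array 2 (adjusted p = 0.0998) was left out, or when no filter was set (adjusted p = 0.0606). In plasmablasts Bcl6 read 8.83 ± 0.13 (SD, n = 3), lower than in plasma cells by 3.59 in the fit of all 7 arrays. Spi1 (PU.1), a factor of both B cells and myeloid cells, rose from 9.47 and 9.32 to 11.43 and 11.53. The same arrays showed a rise of 19 of 19 myeloid markers, described further on. Their part in the results for Bcl6 and Spi1 was not tested. Pou2f2 rose by 0.69.

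Most listed genes of B cell surface proteins and B cell receptor signalling were lower too. Of 40 listed genes 33 had a probe and 31 were tested, of which 25 fell and 2 rose, with a median of -2.05. Fcer2a, the low-affinity IgE receptor CD23, read 13.67 and 13.71 in naive B cells and 5.33 and 5.30, not above background, in plasma cells, at least 151-fold lower (adjusted p = 4.36e-07). Cd22 was at least 77.3-fold lower. The complement regulator gene Cd55 fell 33.1-fold and Fcrl1 31.9-fold. Ms4a1 (CD20) read 11.24 and 11.25 against 6.45 and 6.19, and the receptor chain gene Cd79a 14.76 and 14.88 against 11.78 and 12.31, both named after their values were seen. The 2 that rose, Plcg2 and Pik3cd, are signalling genes, with log2 differences of 0.37 and 0.50. Of other signalling genes Blk fell by 3.97 and Syk, Btk and Blnk by 0.93, 0.86 and 0.82. Vav1 and Pik3ap1 were not called. Among the receptors for BAFF and APRIL, Tnfrsf13c (BAFF receptor) fell 5.71-fold and Tnfrsf13b fell by 1.70, while Tnfrsf17, above, rose.

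MHC class II presentation had the lowest median of the 26 lists drawn in the plot of gene lists. Of 19 listed genes, each with a probe, 16 were tested, of which 14 fell and 1 rose, with a median of -2.81. H2-Oa, part of the chaperone H2-O that tunes peptide loading, read 13.55 and 13.65 in naive B cells and 6.32 and 6.05, not above background, in plasma cells, at least 142-fold lower. H2-DMb2, a chain of the loading catalyst H2-DM, fell 150-fold, from 14.16 and 14.09 to 7.02 and 6.77. Ciita, which switches the class II genes on, fell 30.5-fold, from 12.16 and 12.27 to 7.22 and 7.35. H2-Ob fell 20.9-fold. The member that rose, Ctss (0.55), lost its call in 3 alternatives.

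Quiescence genes and the GIMAP family, small GTPases of resting lymphocytes, followed the same direction. Of 20 listed genes 19 had a probe and 17 were tested, of which 14 fell and 2 rose, with a median of -2.21. Gimap7 fell 29.2-fold, and Gimap3, Gimap5 and Gimap8 fell by 4.35, 4.26 and 4.20. Klf4 rose from 10.66 and 10.09 to 11.69 and 11.96, and it was not above background on any of the 3 plasmablast arrays. Klf4 is also a monocyte gene, and the part of the myeloid markers in the result was not tested.

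Transcripts of other spleen cells stood on both sides of the comparison. Myeloid markers were higher on the plasma cell side. Of 25 listed monocyte and general myeloid markers 20 had a probe and 19 were tested, and all 19 rose, with a median of 2.59 and a summed linear signal of 53271 and 58169 in naive B cells and 249983 and 249304 in plasma cells. The lysozyme gene Lyz2, named after its values were seen, read 12.10 and 12.29 in naive B cells and 15.33 and 15.34 in plasma cells. F10 (coagulation factor X) was at least 53.6-fold, Chil3 at least 64.6-fold, the inhibitory receptor gene Lilrb4a at least 15.2-fold and Clec4e, a receptor for microbial glycolipids, at least 23.5-fold higher. The integrin gene Itgam (CD11b) read 4.99 and 5.02, not above background, against 8.87 and 8.93. Ccr2 was above background on none of the 4 arrays.

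Neutrophil markers rose as well, while many of their defining members were not measured above background. Of 26 listed markers 24 had a probe and 12 were tested, and all 12 rose, with a median of 4.49 (3.47 with bounded changes at their limit) and a summed linear signal of 700 and 826 in naive B cells against 70409 and 65765 in plasma cells. Saa3 and Hp, described below, belong to this list, and both are acute-phase genes that other cells also express. S100a8, a calcium-binding alarmin, read 5.42 and 6.72 in naive B cells, above background on 1 array, and 13.08 and 12.62 in plasma cells. Lcn2, an iron-sequestering protein, was at least 14.7-fold higher and the G-CSF receptor gene Csf3r, named after its values were seen, at least 19.1-fold higher. The granule and surface genes Ngp, Camp, Ltf, Elane, Cxcr2, Mmp8, Mmp9, Retnlg, Il1r2, Stfa1, Stfa2 and Stfa3 were above background on 0 of 4 arrays.

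T and NK cell markers were also higher on the plasma cell arrays. Of 22 listed markers 20 had a probe and 12 were tested, of which 11 rose and 1 fell, with a median of 2.07 (1.48 with bounded changes at their limit) and a summed linear signal of 1958 and 1960 against 7371 and 8080. Thy1 read 5.33 and 5.48, not above background, against 11.04 and 10.74. The T cell receptor chain genes Cd3g and Cd3e were at least 12-fold and 2.72-fold higher and the IL-7 receptor gene Il7r at least 13.1-fold higher. Klrd1, an NK cell receptor gene, fell by 3.21. Cd4, Cd8a, Cd5, Cd247, Trat1, Ncr1, Gzma and Gzmb were above background on 0 of 4 arrays.

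Markers of red pulp macrophages, red cells and platelets were mostly higher on the naive B cell side. Of 20 listed red pulp macrophage markers, each with a probe, 18 were tested, of which 14 fell and 3 rose, with a median of -2.69 and a summed linear signal of 74132 and 58068 in naive B cells against 35823 and 35280 in plasma cells. The adhesion gene Vcam1 read 13.39 and 12.74 against 6.16 and 6.32, not above background, at least 98.3-fold lower. The lectin gene Fcna, above background on 1 of the 2 plasma cell arrays, read 12.98 and 12.79 against 6.10 and 6.49. It fell 96.5-fold on these values, the transferrin gene Trf 26.6-fold and the iron exporter gene Slc40a1 21.2-fold. Slc11a1, an iron and manganese transporter of phagosomes, went the other way, from 12.02 and 11.75 to 14.35 and 14.28. Marco rose to 11.08 and 9.72 from 7.12 and 8.44 and lost its call without plasma cell replicate 1 (adjusted p = 0.0501), and Hmox1 rose by 0.94. Cd5l and Siglec1 were above background on 0 of 4 arrays. With all 7 arrays normalized together, the summed signal of this list was 5191, 4986 and 4872 in plasmablasts. It was 68453 and 53268 in naive B cells and 33891 and 33493 in plasma cells.

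Red cell and platelet transcripts were among the largest falls. Hba-a1, an alpha globin gene with a near-identical copy that its probe may also detect, read 14.42 and 14.86 in naive B cells and 4.96 and 5.24, not above background, in plasma cells, at least 292-fold lower. The beta globin gene Hbb-bt fell 32.4-fold, the red cell anion exchanger gene Slc4a1 was at least 11.8-fold lower and the haem synthesis gene Alas2 at least 7.30-fold lower. Of 20 listed erythroid markers 14 had a probe and 7 were tested, with 5 lower, 1 higher and a median of -4.27 (-2.87 with bounded changes at their limit), and a summed linear signal of 27612 and 37992 against 1345 and 1076. Of 14 platelet markers 11 had a probe and 8 were tested, of which 7 fell and 1 rose, with a median of -1.98 (-1.19 with bounded changes at their limit) and a sum of 2695 and 2622 against 541 and 632. The platelet chemokine genes Ppbp and Pf4 were at least 11.3-fold and 6.15-fold lower. Gata1, Epor, Itgb3, Gp1bb and Tubb1 were above background on 0 of 4 arrays.

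The remaining cell types left few values. Of 12 dendritic cell markers 5 were tested, with 3 higher and 1 lower. Itgax (CD11c) read 5.12 and 5.19, not above background, against 6.48 and 6.79, while Dnase1l3 fell by 4.17, and Flt3, Zbtb46, Xcr1, Clec9a and Siglech were above background on 0 of 4 arrays. Of 12 mast cell, basophil and eosinophil markers 4 were tested, with Prg2, an eosinophil granule gene, at 7.40 and 7.62 against 11.27 and 11.09. In plasmablasts Prg2 read 11.10 ± 0.10 (SD, n = 3). Of 18 endothelial and stromal markers 3 were tested, and Vwf, also a platelet gene, rose by 0.87 while Esam was at least 3.17-fold lower.

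**Figure D3:**
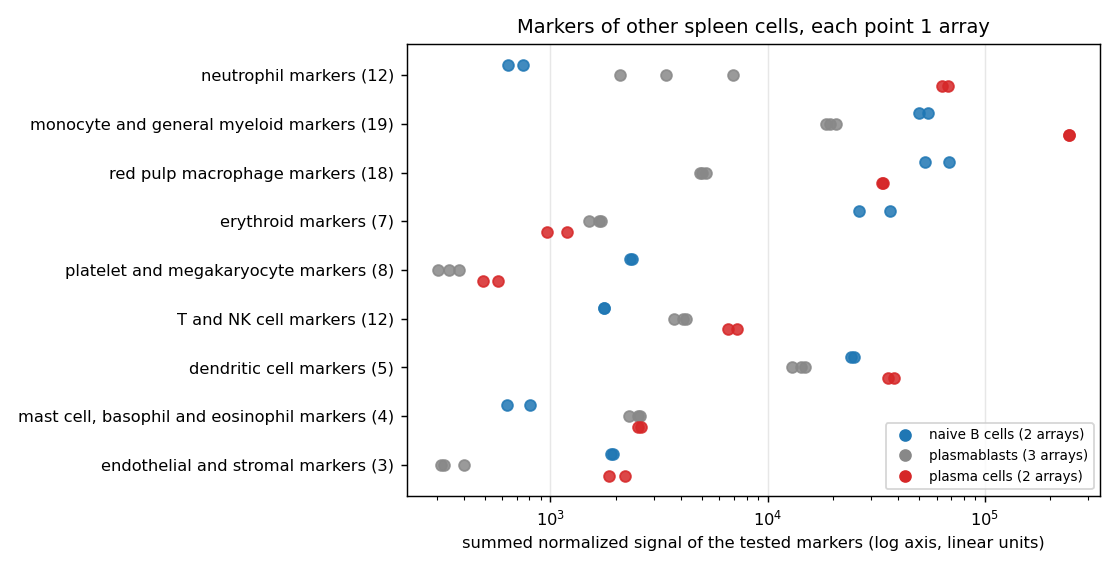
Summed normalized signal of the tested markers of other spleen cells (x axis, log scale, linear signal units, the 7 arrays normalized together) by list (y axis, number of tested markers in brackets), 1 point per array. Myeloid, neutrophil and T and NK cell sums are highest on the plasma cell arrays (red) and red pulp macrophage, erythroid and platelet sums highest on the naive B cell arrays (blue), with plasmablasts in grey.

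Single genes reached larger differences. The genes named first were the 12 with the highest normalized log2 difference, an order that partly rests on signals not above background; Rgcc, measured above background on all 4 arrays, rose 43.6-fold, more than the bound of Tppp3. They were Saa3 (at least 283-fold), Smpdl3b (at least 157-fold), Hp (at least 218-fold), Upp1 (at least 75.8-fold), Rpl3l (at least 53.6-fold), F10, Nupr1, Tppp3 (at least 39.0-fold), Chil3, S100a8 (110-fold on values above background on 1 naive B cell array), Emilin2 (at least 61.1-fold) and Mmp14 (at least 58.4-fold). Saa3, a serum amyloid A of the acute phase, read 6.04 and 6.05, not above background, against 14.94 and 14.77. Smpdl3b, a membrane-anchored phosphodiesterase, read 5.29 and 5.50 against 13.94 and 14.06, and Hp, the haemoglobin-binding protein haptoglobin, 6.07 and 6.58 against 14.42 and 14.53. Mmp14, a membrane-bound metalloproteinase, read 6.05 and 6.04 against 12.61 and 12.55. Saa3, Hp and S100a8 stand in the neutrophil list and F10 and Chil3 in the myeloid list, and the part of those markers in the other rises was not tested. On the plasmablast arrays Upp1, Rpl3l, F10, Nupr1, Tppp3, Chil3, Emilin2 and Mmp14 were above background on 0 of 3.

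By the same order, and with the same limit, the 12 falls were Hba-a1, Fcer2a, H2-Oa, H2-DMb2, Srpk3 (at least 58.1-fold), Cd22, Vcam1, Fcna, Eif2s3y (at least 32.6-fold), Chst3 (76.8-fold), Ell3 (at least 43.6-fold) and Nxpe2 (at least 24.5-fold). Rgs1 and Cd55, measured in both groups, fell 37.1-fold and 33.1-fold, more than the bounds of Eif2s3y and Nxpe2. Srpk3, a kinase of splicing factors, read 12.22 and 12.39 against 5.09 and 5.12, not above background. The sulfotransferase gene Chst3 read 13.56 on both naive B cell arrays and 7.07 and 7.52 in plasma cells. Ell3, an elongation factor, read 11.91 and 11.87 against 5.80 on both plasma cell arrays. In plasmablasts, on the scale of all 7 arrays normalized together as for every plasmablast value here, Srpk3 read 8.84 ± 0.25, Chst3 11.04 ± 0.25 and Ell3 7.06 ± 0.53 (SD, n = 3).

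**Figure D4:**
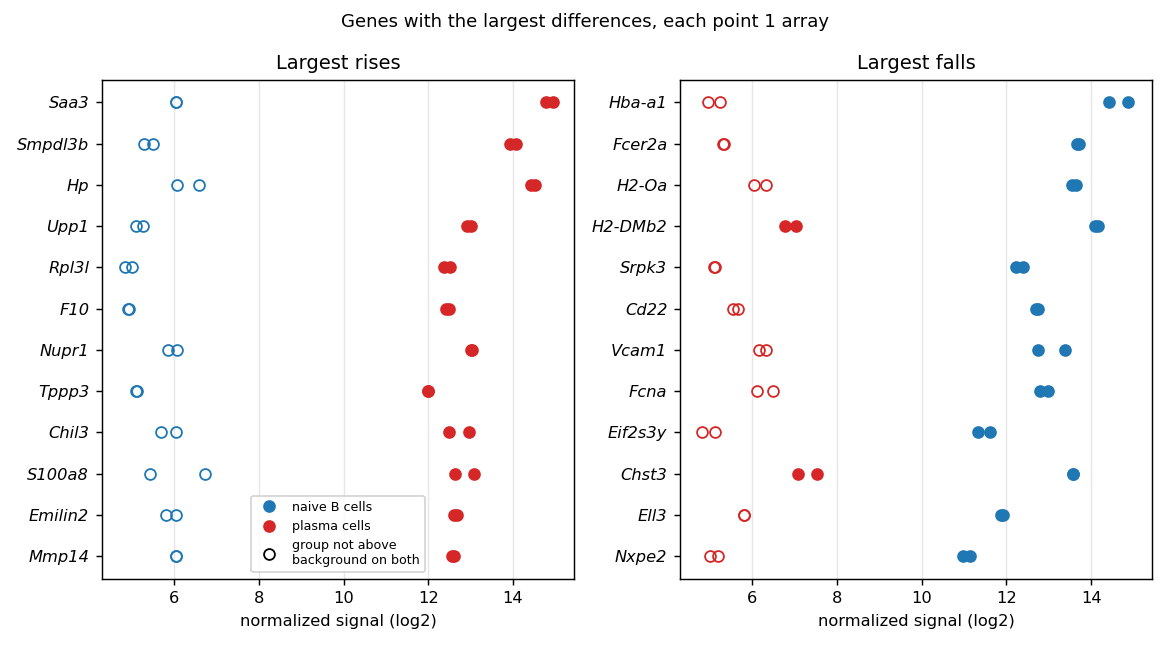
Normalized log2 signal (x axis) of the 12 genes with the highest (left) and the 12 with the lowest (right) normalized log2 difference between plasma cells (red) and naive B cells (blue), 1 point per array. Open circles mark a group that was above background on fewer than 2 of its arrays. That was 1 array for S100a8 in naive B cells and for Fcna in plasma cells, and none for the others. The genes were chosen among called genes without overlap between the groups, and 87% of all genes had no overlap.

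The large rises differed in their plasmablast level. Of the 160 genes at least 8-fold higher in plasma cells, counted at their bounds, 70 were above background on 0 of 3 plasmablast arrays and 81 on all 3, where 858 and 5946 of all 7187 genes were. Of the 102 genes at least 8-fold lower, 24 were above background on 0 of 3 and 70 on all 3. The following genes, all chosen after their values were seen, give examples. Gpr84, a receptor for medium-chain fatty acids, read 4.91 on both naive B cell arrays and 11.29 and 11.28 in plasma cells, and was not above background in plasmablasts. The fractalkine receptor gene Cx3cr1 rose from 6.19 and 6.74 to 12.49 and 12.87, with 6.50 ± 0.38 (SD, n = 3) in plasmablasts. Fpr2, a formyl peptide receptor, rose from 8.92 and 9.89 to 14.47 and 14.38, with 8.39 ± 0.56 in plasmablasts. By contrast Rgcc, a cell cycle regulator, read 7.01 on both naive B cell arrays, 12.47 and 12.43 in plasma cells and 13.42 ± 0.16 in plasmablasts. Ctla4, an inhibitory receptor, was at least 9.05-fold higher than in naive B cells, with 10.62 ± 0.09 in plasmablasts, and the cytokine gene Il10 rose from 6.98 and 6.61 to 9.92 and 10.13, with 10.42 ± 0.14.

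Plasma cells were also set against plasmablasts in a fit of all 7 arrays. That comparison uses the same plasma cell arrays, so its values are given beside the first ones and not as support. Of the 7187 genes 2121 (29.5%) were higher and 3196 (44.5%) lower in plasma cells than in plasmablasts. Of 22 plasma cell genes 1 was higher and 16 were lower, with a median of -1.03, against 16 higher and 3 lower over naive B cells. Sdc1, at 0.04 (adjusted p = 0.813), and Tnfrsf17, at -0.28 (adjusted p = 0.122), were not called, while Prdm1 was lower by -1.66, Irf4 by -1.40 and Bhlha15 by -1.48. Of 23 ER folding genes 0 were higher and 21 lower, and of 34 ER to Golgi genes 1 was higher and 32 lower. Of the myeloid markers 19 of 19 were higher than in plasmablasts, with a median of 4.95. Their summed signal in the joint fit was 20663, 19457 and 18646 in plasmablasts, 50067 and 54685 in naive B cells and 244127 and 244414 in plasma cells. The part of these transcripts in the differences of the other lists was not tested.

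Genes of the cell cycle were mostly higher in plasma cells than in naive B cells. Of 30 listed mitosis genes 27 had a probe and 19 were tested, of which 16 rose and 1 fell, with a median of 1.5 (1.17 with bounded changes at their limit). Top2a, which untangles chromosomes, rose from 8.14 and 8.19 to 10.46 and 9.99, and Cdc20, which starts anaphase, rose from 8.90 and 8.93 to 11.07 and 10.81. Tpx2 and Kif2c, spindle genes, were at least 1.58-fold and 1.92-fold higher. Of 38 replication genes 34 had a probe and 30 were tested, of which 15 rose and 3 fell, with a median of 0.36. Mcm10, Rrm2 and Cdc6, for origin firing and nucleotide supply, rose 6.10-fold, 5.49-fold and 4.80-fold, while the polymerase gene Pold1 fell by 2.46. All 19 mitosis genes and all 30 replication genes were lower in plasma cells than in plasmablasts, with medians of -1.78 and -1.35.

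Regulators of the cycle were mixed. Of 24 listed 23 had a probe and 18 were tested, with 10 higher and 4 lower. The inhibitor gene Cdkn1a (p21) rose from 6.89 and 7.16 to 9.26 and 9.52 and the cyclin gene Ccnd3 from 10.92 and 11.02 to 13.29 and 13.49. Both were also higher than in plasmablasts, by 2.00 and 2.54. The transcription factor gene Myc, a target of Blimp-1, read 8.25 and 8.30 in naive B cells and 5.59 and 5.44, not above background, in plasma cells, at least 3.56-fold lower, and Ccnd1 fell by 2.37. Of 28 ribosome biogenesis genes 25 had a probe and 21 were tested, of which 13 fell and 2 rose, with a median of -0.59, and Rrp9, Gar1 and Fbl, all of small nucleolar particles, fell 2.66-fold, 2.30-fold and 2.25-fold.

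Genes of oxidative phosphorylation were called higher at about the share of all genes. Of 47 oxidative phosphorylation genes 45 had a probe and 41 were tested, of which 14 rose and 2 fell, with a median of 0.14, beside 32.7% higher and 37.8% lower over all genes. The highest was Atp5a1, which rose 1.79-fold. Of 22 genes of glycolysis and lactate transport 19 had a probe and 17 were tested, with 11 higher, 2 lower and a median of 0.57. The hexokinase gene Hk2 rose 4.93-fold and Pkm 2.25-fold. The lactate exporter gene Slc16a3 read 4.99 and 4.92, not above background, against 9.18 and 9.42, and another hexokinase gene, Hk3, rose from 7.86 and 7.98 to 10.53 and 10.57. Both were above background on 0 of 3 plasmablast arrays, and the part of the myeloid markers in their rise was not tested. The glucose transporter gene Slc2a3 fell by 2.97.

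Genes of DNA methylation, the subject of the wider study, moved in both directions. Of 21 listed genes 17 had a probe and 13 were tested. Of these 5 were higher and 6 lower, beside 32.7% higher and 37.8% lower over all genes. Their median was 0.17, which turned to -0.266 with the mean over a gene's probes and to -0.00879 without naive B cell replicate 1. Dnmt1, which copies methylation at replication, read 9.41 and 9.46 against 9.79 on both plasma cell arrays, a log2 difference of 0.36 (adjusted p = 0.0194) whose call was lost in 3 alternatives. Its partner Uhrf1 rose by 0.79, from 9.74 and 9.69 to 10.61 and 10.40 (adjusted p = 0.00131). The de novo enzyme gene Dnmt3b read 9.51 and 9.43 against 9.13 and 8.57, a log2 difference of -0.62 (adjusted p = 0.0245) that was -0.35 without plasma cell replicate 2 and lost its call in 4 alternatives. Dnmt3a was above background on 0 of 4 arrays. The largest changes in the list were of GADD45 genes, linked to demethylation: Gadd45g read 11.68 and 11.67 against 9.44 and 9.29 and Gadd45a fell by 1.11, while Gadd45b rose by 1.10. Gadd45 genes are also stress-response genes.

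Polycomb genes changed in both directions. Of 20 listed genes 18 had a probe and 14 were tested, with 7 lower, 3 higher and a median of -0.29. Over all genes, too, falls outnumbered rises, with 37.8% lower and 32.7% higher. Ezh2, which writes H3K27 methylation, was not called, at 0.21 (adjusted p = 0.113), but was called under cyclic loess (adjusted p = 0.0309). Cbx7, a reader of that mark, fell from 11.02 and 10.83 to 8.05 and 8.11, and Bmi1 fell by 1.68. The demethylase gene Kdm6b rose by 1.06. Kdm6a rose by 0.98, and since this gene lies on chromosome X its difference cannot be told apart from that of the sex-linked genes.

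Genes of homing and adhesion changed in both directions. Of 28 listed genes 26 had a probe and 19 were tested. Of these 8 were higher and 9 lower, beside 32.7% higher and 37.8% lower over all genes. Ccr7, which leads lymphocytes to T cell zones, read 11.22 and 11.25 against 5.74 and 5.96, not above background, at least 27.7-fold lower. Cxcr5, the receptor for B cell follicles, fell from 12.92 and 12.95 to 7.93 and 8.70, and Gpr183, which guides cells to the follicle edge, fell by 3.42. Rgs1, which dampens such receptors, fell by 5.21. Among the rises, the adhesion gene Cd44 rose 5.82-fold, and the integrin genes Itgb1, Itgb2 and Itgam, above, rose as well. Itgb2 and Itgam pair in the myeloid integrin Mac-1, and the part of the myeloid markers in their rise was not tested.

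Survival genes and signalling lists had members on both sides. Of 19 Bcl-2 family genes 16 had a probe and 12 were tested, with 6 higher and 1 lower: the pro-death gene Bbc3 (PUMA) rose 4.53-fold, with further probes at log2 differences of 1.01 and 0.93, and Bak1 2.60-fold, the survival genes Bcl2l1 and Bcl2a1d rose 2.90-fold and 2.87-fold, and Bid fell by 1.41. Bcl2a1d has near-identical copies that its probe may also detect. In Toll-like receptor and NF-kB signalling 26 genes were listed, 23 had a probe and 22 were tested. Of these 8 were higher and 7 lower, with a median of 0.05, beside 32.7% higher and 37.8% lower over all genes. Myd88 rose from 11.94 and 11.82 to 13.54 on both plasma cell arrays and Irak3, which dampens the pathway, rose by 1.74, while Nfkbid, Tlr1 and Rel fell by 2.82, 1.93 and 1.88. The LPS co-receptor gene Ly96 rose 2.24-fold. Against plasmablasts 7 of the 12 Bcl-2 family genes were higher and 3 lower, with Bcl2a1d at 4.20 and Bcl2l1 at -1.37. Of the 22 Toll-like receptor and NF-kB genes 15 were higher and 1 lower, with Irak3 and Myd88 higher by 3.06 and 2.00. Over all genes 29.5% were higher and 44.5% lower than in plasmablasts. The part of the myeloid markers in the rises of Bcl2a1d, Irak3 and Myd88 was not tested.

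Interferon and immediate early genes were lower in plasma cells. Of 24 interferon response genes 22 had a probe and 17 were tested, with 12 lower, 4 higher and a median of -0.94. Ifit3 fell from 10.33 and 10.72 to 7.16 and 7.19, Rsad2 fell by 2.53 and Usp18 by a log2 difference of -2.27, while Isg20, an exonuclease, rose from 8.01 and 7.99 to 10.68 on both arrays and Isg15 rose 4.07-fold. Of 21 immediate early and dissociation stress genes 20 had a probe and 16 were tested, with 13 lower, 2 higher and a median of -1.99. Fos stood at 14.11 and 14.18 in naive B cells and 10.74 and 11.31 in plasma cells, and Fosb, Cd69 and Dusp2 fell 28.2-fold, 16.2-fold and 13.4-fold.

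A gene stands here on 1 probe. Of 1857 genes with several kept probes, 1161 had at least 2 called probes of the same direction, 38 had called probes of opposite direction and 658 had fewer than 2 called probes. Other probes of Cd22, Creb3l2, Csf3r and Ets1 gave log2 differences of the same direction and smaller size, down to -2.44, 2.38, 1.82 and -1.58. The lower group was above background on 1 of its 2 arrays for S100a8, Fcna, Fcrl1, Itgb1, Stt3a, Cdc6, Bcl2l1, Gimap5, Hbb-bt, Klrd1, Nfil3, Cx3cr1, Trem3, Pdia6 and Ms4a1, and their changes use both values. The 585 probes without a gene name behaved like the rest, with 181 (30.9%) higher and 216 (36.9%) lower. Just outside the rule that chose the probes lay 639 that were above background on 1 of the 4 arrays, with a median signal of 6.23, and just inside it lay 1457 above background on 2, with a median of 6.62. Pax5 and Dnmt3a lie outside it.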

How the data were processed

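Per the file headers, the deposited scanner table gave each probe an intensity per array, with a detection p-value that scores it against the array's negative controls. Per the submitters' processing notes the authors used GenomeStudio 2011.1. A second table deposited by the authors held quantile normalized intensity values; quantile normalizing the scanner values came within 0.0119 log2 units of it, and it served as an alternative.

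From the scanner table, neqc of limma 3.58.1 (R 4.3.3) was run on the 4 arrays (normexp background, offset 16, quantile normalization, log2). A model of 2 group means was fitted to the 10325 kept probes and tested with eBayes (2 residual and 4.14 prior degrees of freedom), with Benjamini-Hochberg adjustment. The comparison with plasmablasts was fitted on 7 arrays (10718 probes). Gene names came from the platform annotation, updated through the RefSeq table of GRCm38.p6; 23978 of 25697 probes had 1. The pipeline was tested on simulated data.

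Members, lists and tests were chosen with earlier results of these data known. The text names the 12 highest and 12 lowest normalized differences among called genes whose arrays do not overlap, up to 4 called members per list and direction, markers, regulators, sort genes and sex-linked genes; others are said to be named after their values were seen. Replicate numbers are shared between groups, but the labels do not say that a number marks a shared source. The numbers were therefore not taken to pair samples, and the tests have no block. Deviations of same-numbered samples had r = -0.0367 for naive B cell 1 and plasma cell 1. They had 0.16 and 0.0811 for the plasmablast and plasma cell pairs 1 and 2. In a group of 2 samples the deviations mirror each other, so these values cannot show whether a number marks a shared source. Alternatives covered scaling, background, filter, offset, probes per gene, a trend, a block and each array left out.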

Additional observations from a re-analysis of the deposited data

How the results depend on the processing

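Counts of calls over all probes and genes stayed within 1.5 times in every alternative run. Genes called higher ranged from 1745 to 2712 and genes called lower from 2245 to 2848, and leaving out 1 array in turn gave 2029 to 2160 and 2245 to 2472. Cyclic loess moved the median of all genes from -0.09 to 0.04. With the replicate number as a block, 2307 genes were higher and 2654 lower; since the numbers were not shown to pair the samples, the block is given only here. List medians near 0 changed sign. Homing and adhesion was 0.0298 under cyclic loess and DNA methylation -0.266 with the mean over probes. Leaving out 1 array in turn gave medians from -0.00879 to 0.185 for DNA methylation, from -0.0281 to 0.148 for Toll-like receptor and NF-kB signalling and from -0.312 to 0.388 for mast cell, basophil and eosinophil markers. The platelet median was 0.87 among genes above background on all 4 arrays, which left 1 gene. For the other sign changes the cause was not tested. Leaving out an array leaves 1 sample in its group, which is assumed to vary like the other group. Bounds replace folds where a group was not above background, so the size of those changes is limited by the arrays' signal over background.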

Other observations

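Further genes, chosen after their values were seen, changed strongly outside the lists. Nfil3, a transcription factor, rose from 6.60 and 6.94 in naive B cells to 11.34 and 11.62 in plasma cells, with 9.45 ± 0.14 (SD, n = 3) in plasmablasts. The lactonase gene Pon3 was at least 21.2-fold higher, the sulfotransferase gene Chst1 at least 17.4-fold and Rsph1, a gene of motile cilia, at least 12.7-fold. All 3 were above background on each of the plasmablast arrays. The bound of Pon3 holds for its brightest probe, with a log2 difference of 5.61, and its other probes gave smaller rises of 3.03 and 2.54. Trem3, a receptor of myeloid cells, rose from 6.46 and 7.55 to 13.06 and 13.11.

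Among the falls, Vpreb3, a B lineage chaperone gene, read 12.87 and 13.11 in naive B cells and 8.30 and 7.45 in plasma cells. The activation marker gene Cd83 fell by 5.26 on the log2 scale, the desaturase gene Scd1 fell by 4.27 and the inhibitory receptor gene Btla fell by 3.31. Slamf1 was at least 13.6-fold lower. Itgad, Igf1 and the complement gene C1qa, all known from splenic macrophages, were lower by at least 13.8-fold, at least 6.80-fold and 14.2-fold, and were above background on 0 of 3 plasmablast arrays.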
